A study of Mus musculus with 80 samples.

Results

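The lungs of CYP2F2 knockout mice (KO, 5 arrays) were compared with those of C57Bl/6 wild-type mice (WT, 5 arrays) that had breathed air only, to describe how the lungs of the strains differed before any styrene. The members were the 10 arrays titled as knockout or wild type at a dose of 0 ppm, out of 80 arrays in the series. All 10 mice were adult males from Taconic. They had been caged singly for 1 air exposure of 6 h and were killed the next morning, and RNA was taken from the whole lung. The rest of the series held the same strains after 10, 40 or 120 ppm styrene (5 arrays at each dose), a strain titled C57Bl/6 TG, which the series title calls CYP2F1 humanized, and CD-1 mice, an outbred stock. The titles call the 5 arrays of a group biological replicates. The part of Cyp2f2 that was deleted, the breeding of the knockout line and its genetic background relative to the wild type are not stated in the labels. Strain therefore cannot be told apart from litter, colony or any separate handling of the strains.

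CYP2F2 is a cytochrome P450 of the airway. It is made mainly by club cells, the secretory cells that line the mouse bronchioles, and it oxidises small lipophilic chemicals such as naphthalene and styrene into reactive metabolites. Its gene lies on chromosome 7 in a cluster of Cyp2 genes. A gene that is removed by targeting in one strain of embryonic stem cells and crossed into another can carry flanking chromosome from the first strain, and neighbouring genes were therefore described separately.

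Levels are log2 signals from an Affymetrix 3' expression array, so a difference of 1 is a factor of 2 on the linear scale. As deposited, the KO arrays were dimmer as a whole. Array medians ran from 4.16 to 4.20 in KO and from 4.55 to 4.59 in WT, and the median gene lay 0.36 lower in KO. The shift also depended on the level, from -0.38 for genes between 5 and 8 to -0.25 for genes above 11. The 10 arrays were therefore brought to 1 common distribution (quantile normalization), and every KO minus WT difference below is on that scale unless another is named. Between arrays of a group the Pearson correlation over the tested genes ran from 0.986 to 0.993 in KO and from 0.988 to 0.995 in WT, and between the groups from 0.979 to 0.989. A principal component analysis of the 10 arrays placed KO at 4.57 to 16.6 and WT at -16.2 to -5.73 on the first component, which held 40.4% of the variance. KO replicate 4 (16.9) and WT replicates 4 and 5 (-9.59 and -9.65) lay farthest out on the second component, which held 14.1%. WT replicate 1 also stood apart in the genes of squamous epithelium, with a mean level of 8.92 against 3.35 to 3.86 in the other 9 arrays.

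The defining markers of lung were present in every array, at like levels on the quantile-normalized scale. That scaling brings the brightest genes of all arrays close together, so sums led by such genes cannot show a small difference. After median subtraction 3 alveolar type 1 and 4 alveolar type 2 markers were called higher in KO. The summed signal of 9 alveolar type 2 markers ran from 15.47 to 15.50 in KO and from 15.48 to 15.50 in WT, and that of 9 alveolar type 1 markers from 14.94 to 15.03 and from 14.91 to 14.97. In whole lung, fewer cells of a type and less RNA per cell cannot be told apart.

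Of 17097 genes with a probe set of their own, 10539 were bright enough to be tested. The KO and WT lungs differed in 1984 of them (18.8% of those tested) at an adjusted p under 0.05 by limma, 1104 higher and 880 lower in KO. Most of these differences were small. The median size of a difference over all genes was 0.12, beside a median standard error of 0.08. At least a 1.5-fold difference was measured for 197 of the called genes (1.87%), 95 higher (0.901%) and 102 lower (0.968%), and these are the genes called at 1.5-fold below. A gene could be tested through 1 group alone: in 48 genes all arrays of the other group lay below the level required (4.38), and 30 of these were called at 1.5-fold (62.5%). Such genes had to differ, and without them 167 of 10491 were called (1.59%). Genes with only some arrays of 1 group below the level were left in. Ccr6, Atp6v1b1, 5830417I10Rik and Nqo1, described below, are such genes, and low signal limits their folds as well. In 156 of the 197 no KO array overlapped a WT array, beside 1427 such genes among all tested (13.5%; 7.71% higher and 5.83% lower in KO). When the median difference was subtracted in place of quantile normalization, 209 genes were called at 1.5-fold, of which 72 were higher and 137 lower. The share of higher calls was then 34.4% in place of 48.2%, so the balance between rises and falls depends on the scaling. Of the 197 genes, 172 were also called at 1.5-fold on that scale. Leaving out a single array gave 176 to 253 calls at 1.5-fold and 1319 to 2143 calls without the fold condition. The count of 1319 was reached without WT replicate 2. Without that array 554 genes were lower in KO, and without WT replicate 3 there were 578.

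**Figure D1:**
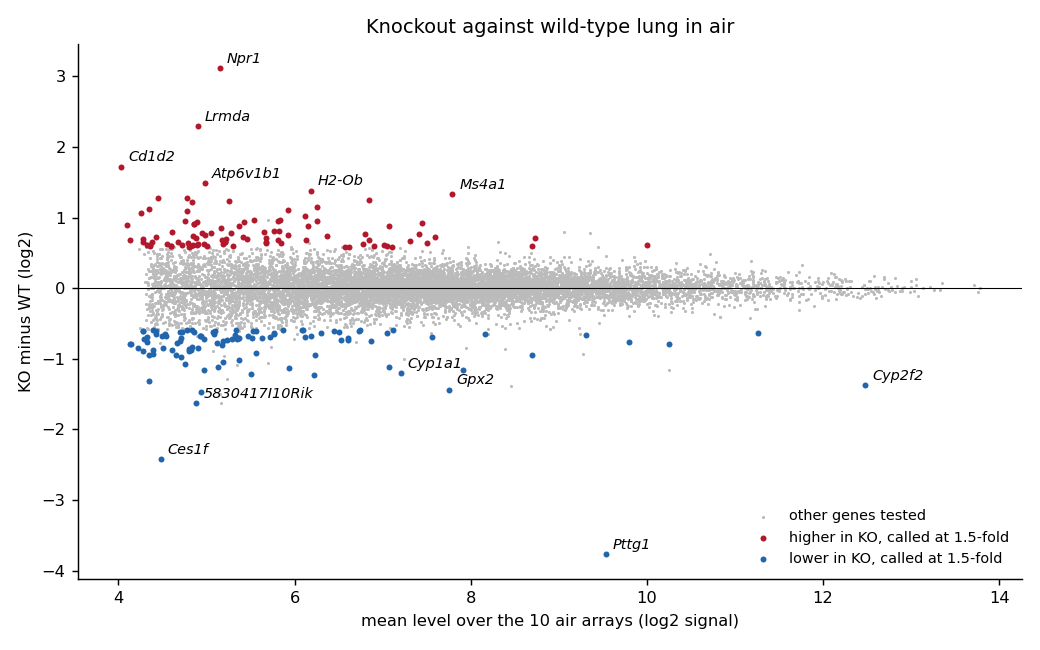
Difference between KO and WT in air (log2, vertical axis) against the mean level over the 10 arrays (log2 signal, horizontal axis) for the 10539 genes tested. Red points are the 95 genes called at 1.5-fold that were higher in KO and blue points the 102 that were lower; Npr1 and Lrmda lie highest, and Pttg1 and Ces1f lowest.

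The targeted gene was checked first. Cyp2f2 stood at 11.78, 11.72, 11.65, 11.91 and 11.88 in KO replicates 1 to 5 and at 13.13, 13.17, 13.20, 13.13 and 13.17 in WT replicates 1 to 5. All KO arrays lay below all WT arrays, with 1.22 between the nearest. The difference was -1.37 ± 0.06 (SE), so the WT signal was 2.59-fold that of KO (adjusted p = 6.88e-08, limma, n = 5 and 5). It was -1.19 after median subtraction, -1.29 after cyclic loess normalization and -1.55 as deposited. Leaving out each array in turn gave -1.40 to -1.33. The gene has 1 probe set on this array. Whether it lies inside the deletion is not stated, so the signal that remains in KO says nothing about how much transcript remains. The promoter of Cyp2f2 is shown because it is the targeted locus; whether the deletion reaches it is not given. It is the 250 bases before the RefSeq start on the plus strand of GRCm38.p6 (chr7:27119705-27119954), read 5' to 3', and holds no TATAAA, a match found in 12.4% of the 32851 promoter windows of that length.

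Cyp2f2 promoter: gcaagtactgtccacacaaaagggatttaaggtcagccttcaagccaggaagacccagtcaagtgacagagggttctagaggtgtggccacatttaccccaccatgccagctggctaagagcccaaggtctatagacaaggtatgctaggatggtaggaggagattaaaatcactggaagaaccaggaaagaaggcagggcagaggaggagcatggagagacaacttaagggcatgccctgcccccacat

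Other club cell markers did not pass the test. Of 15 tested members of the club cell list, 1 was lower in KO, which was Cyp2f2, and 0 were higher; the list's median was -0.05, beside 0.01 over all genes. Scgb1a1, the secretoglobin that defines club cells, ran from 13.75 to 13.80 in both groups (difference 0.00 ± 0.04, adjusted p = 0.946). That level is close to the top of the measured range. On the median-subtracted scale Scgb1a1 was 0.27 higher in KO and passed the test, and 2 club cell genes were called higher and 2 lower in all.

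The 15 largest rises and 15 largest falls below were picked among genes called at 1.5-fold whose groups did not overlap. Their lack of overlap followed from that rule. The rises in KO were led by 3 genes with a WT signal below 4.38. That is the level that a gene had to pass in 5 arrays to be tested. Npr1 encodes the receptor for atrial natriuretic peptide, a membrane guanylate cyclase. Its level was 6.39, 6.77, 6.74, 6.57 and 7.06 in KO and 3.59, 3.68, 3.45, 3.68 and 3.56 in WT. The groups lay 2.71 apart at their nearest arrays, and the measured difference was 3.11 ± 0.11 (SE; adjusted p = 1.06e-08, limma). Set against the level of 4.38 in place of the WT signal, the KO mean was at least 5.02-fold higher. Lrmda, a gene involved in melanocyte differentiation, was at 6.01, 6.06, 5.91, 6.29 and 5.98 in KO and at 3.68, 3.91, 3.86, 3.73 and 3.57 in WT. All KO arrays were higher, by 2.30 ± 0.08 on average (adjusted p = 1.64e-08), and a further probe set of Lrmda gave 3.13. Cd1d2, a relative of the lipid-presenting molecule CD1d, averaged 4.89 ± 0.21 in KO and 3.17 ± 0.11 in WT (difference 1.72 ± 0.09 SE), with no overlap. The WT arrays of all 3 genes lay below 4.38, so each was tested because of its KO arrays, and the measured differences are not exact folds. Against that level the KO mean was at least 3.19-fold higher for Lrmda and 1.43-fold for Cd1d2.

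A second group of rises belonged to lymphocytes. Ms4a1 encodes CD20, a surface protein of B cells. It was at 8.09, 8.70, 8.25, 8.58 and 8.65 in KO and at 7.22, 6.56, 7.53, 7.71 and 6.63 in WT. Every KO array was above every WT array, although the WT arrays differed among themselves by up to 1.15 (difference 1.33 ± 0.22 SE, 2.51-fold, adjusted p = 0.00251, limma). H2-Ob, which encodes a chain of H2-O, the B cell inhibitor of class II peptide loading, was at 6.82, 7.12, 6.91, 6.59 and 6.92 in KO and at 5.51, 4.95, 5.62, 6.10 and 5.28 in WT. Its difference was 1.38 ± 0.18 (SE) without overlap, and its other probe set gave 1.04. Ccr6, a chemokine receptor of B cells and some T cells, Spib, a transcription factor of B cells, Bank1, a scaffold of B cell receptor signalling, and Iglv1, a variable segment of the lambda light chain, rose by 1.28, 1.23, 1.15 and 1.25. Ptprcap, a lymphocyte protein bound to CD45, rose by 1.11. The Iglv1 value may include signal of related segments, since probe sets of such families can cross-hybridise.

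The remaining members of the 15 largest rises came from varied functions. Atp6v1b1, a subunit of the proton pump of acid-secreting cells, was at 5.28, 5.94, 5.54, 6.51 and 5.35 in KO and at 3.70, 4.84, 4.31, 4.40 and 3.92 in WT (difference 1.49 ± 0.25 SE). The groups did not overlap, though the highest WT array came within 0.44 of the lowest KO array. Mirt1, a long noncoding RNA whose WT arrays all lay below 4.38, rose by 1.27, Cfl2, a muscle form of the actin-severing protein cofilin, by 1.22, Fank1, a gene expressed mainly in testis, by 1.10 and Pi4kb, a phosphatidylinositol kinase of the Golgi, by 1.02.

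Pttg1 showed the largest difference of any gene tested. It encodes securin, which holds separase in check until chromosomes part. Its level was 7.69, 7.69, 7.68, 7.70 and 7.47 in KO and 11.40, 11.36, 11.41, 11.49 and 11.42 in WT. No KO array came within 3.66 of a WT array, and the difference was -3.77 ± 0.06 (SE; WT 13.6-fold higher; adjusted p = 1.63e-12, limma). All 3 probe sets of Pttg1 were lower in KO, by 3.77, 2.61 and 1.48. Ces1f, a carboxylesterase, was at 3.09, 3.09, 3.55, 3.48 and 3.12 in KO and at 5.91, 5.59, 5.99, 5.35 and 5.60 in WT. Its KO signal lay below 4.38 in all 5 mice, and it fell by 2.42 ± 0.13 (SE; adjusted p = 9.43e-07), at least 2.48-fold against that level.

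The unnamed transcript 5830417I10Rik varied widely among the KO arrays. It was at 4.76, 3.70, 3.78, 4.77 and 3.33 in KO and at 5.90, 5.59, 5.72, 5.66 and 5.63 in WT. The KO arrays spread over 1.43 and the WT arrays over 0.31, without overlap (difference -1.63 ± 0.25 SE). Uchl1, a ubiquitin hydrolase of neurons and neuroendocrine cells, was at 3.68, 3.78, 3.67, 3.70 and 3.62 in KO and at 5.14, 5.04, 4.99, 4.70 and 5.12 in WT, all KO arrays being below 4.38 (WT at least 1.54-fold higher against that level). Dck, the deoxycytidine kinase of nucleotide salvage, C1qtnf7, a secreted relative of complement C1q, and Odf2l, a centriole protein, fell by 1.16, 1.12 and 1.11. A further probe set of Odf2l gave -0.19 and did not pass the test. Sfn, an epithelial 14-3-3 protein, Nfil3, a transcription factor that acts on the clock and on lymphoid cells, and Plch1, a phospholipase C, fell by 1.07, 1.04 and 0.95. The WT arrays of Sfn ran from 4.61 to 6.27, a wider spread than the KO arrays from 4.04 to 4.41.

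**Figure D2:**
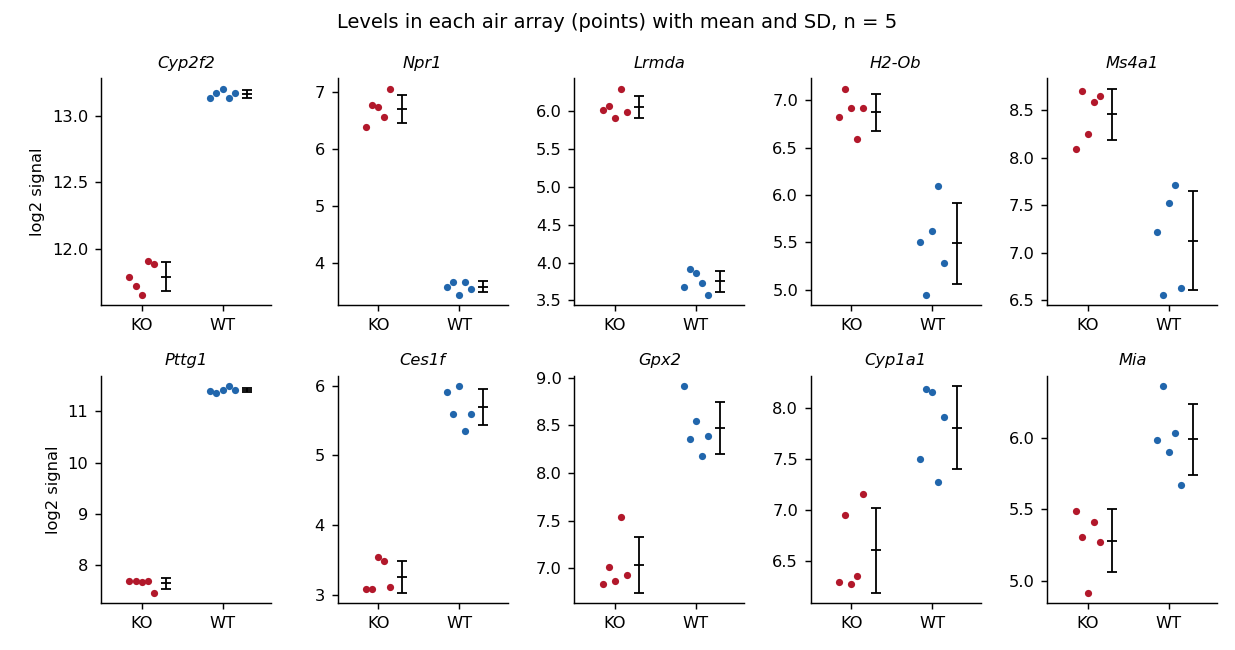
Level (log2 signal, vertical axis, not starting at 0) of 10 genes in each KO (red) and WT (blue) array in air, with the mean and SD of 5 arrays beside the points. In each panel all KO arrays lie on one side of all WT arrays, with the widest gap for Pttg1 (7.47 to 7.70 against 11.36 to 11.49). All genes but Mia came from the rises and falls picked for lack of overlap, so their separation was set by that rule.

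The B cell list showed the largest share of members that passed among the lists with 5 or more tested genes. Of its 7 tested members, 6 rose and 0 fell, where 10.5% of all genes tested were called higher; the list's median was 0.67, beside 0.01 over all genes. Cd79b, the signalling partner of the B cell receptor, rose by 0.92 ± 0.17 (SE; adjusted p = 0.0044, limma), from 6.58 to 7.56 in WT against 7.73 to 8.21 in KO. Cd79a, its partner chain, rose by 0.69 ± 0.13, Cd22, an inhibitory receptor, by 0.67 ± 0.07, Blk, a kinase of the Src family, by 0.59 ± 0.15 and Fcer2a, the low-affinity IgE receptor, by 0.56 ± 0.11. Jchain, the joining chain made by plasma cells, was 0.55 ± 0.19 higher and did not pass (adjusted p = 0.0693). The list's mean level was 5.67, 6.03, 5.84, 5.86 and 5.84 in KO and 5.31, 5.00, 5.37, 5.54 and 5.09 in WT. Thus each KO array lay above each WT array for the list as a whole. Between 5 and 7 members were called when any single array was left out, and 6 without KO replicate 4 and WT replicates 4 and 5. The count was 4 when all 20 air arrays were fitted together and 4 without any scaling. The members were chosen as B cell markers by textbook knowledge, but with earlier results of these data known. Ms4a1, among the largest rises above, is also a member, so the count is no independent check. What share of the change belongs to the number of B cells was not tested.

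Other blood cells moved the same way with fewer calls. Of 7 tested T and NK cell markers, 3 rose (42.9%, beside 10.5% of all genes), and the median was 0.48. These were Cd8a, the coreceptor of cytotoxic T cells (0.48 ± 0.08, SE), and the CD3 chains Cd3e (0.50 ± 0.12) and Cd3d (0.55 ± 0.15). The list's mean level ran from 5.25 to 5.81 in KO and from 4.97 to 5.37 in WT, which overlapped. Between 2 and 4 members were called when single arrays were left out, with 2 without KO replicates 1, 2 or 5 or WT replicate 1. Of 4 tested neutrophil markers 1 rose (25%, beside 10.5% of all genes called higher). This was Csf3r, the receptor for granulocyte colony-stimulating factor, higher by 0.96 ± 0.16. It ran from 5.06 to 5.96 in WT and from 6.06 to 6.66 in KO. The calprotectin genes S100a8 and S100a9 were 0.80 ± 0.33 and 0.78 ± 0.36 higher and did not pass. Without KO replicate 1 or WT replicate 4, 2 neutrophil markers were called in place of 1.

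A list of platelet genes was added after some members had been seen among the rises. Of its 8 tested genes 5 passed (62.5%, beside 10.5% of all genes called higher), all higher in KO, with a median of 0.63. Gp5, a subunit of the von Willebrand factor receptor, was at 6.38, 5.64, 6.00, 6.17 and 6.10 in KO and at 5.27, 5.10, 5.09, 5.55 and 5.28 in WT. Itga2b, the platelet fibrinogen receptor chain, was at 5.44, 5.22, 5.84, 5.39 and 5.29 in KO and at 5.08, 4.44, 4.48, 4.60 and 4.67 in WT. Both genes were higher in all KO arrays, by 0.80 ± 0.13 and 0.79 ± 0.14 (SE). Gp1bb, another receptor subunit, and Ppbp, a chemokine of platelet granules, rose by 0.86 ± 0.23 and 0.71 ± 0.18. Pf4, platelet factor 4, differed by 0.08 ± 0.19 (adjusted p = 0.815). The number of platelet genes called moved between 3, without WT replicate 2 or WT replicate 3, and 7, without WT replicate 1, and was 2 without KO replicate 4 and WT replicates 4 and 5. It was also 2 when all 20 air arrays were fitted together. Mean levels ran from 6.15 to 6.92 in KO and from 5.74 to 6.31 in WT, so the groups overlapped. Of 3 tested erythroid markers 0 passed by limma, and their median was 0.06. At an unadjusted p under 0.05 it was 0 as well, beside 3568 of all 10539 genes tested.

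A few genes of antigen presentation were called. Of 10 tested class II genes, 3 rose (30%, beside 10.5% of all genes called higher): H2-Ob and H2-Oa, the chains of H2-O, and H2-Aa, a chain of the main class II molecule. H2-Oa rose by 0.93 ± 0.13 (SE), and H2-Aa by 0.25 ± 0.07, with overlap between the groups. Cd74, the invariant chain, differed by -0.03. On the deposited scale without any correction H2-Aa was at -0.035 (KO minus WT), so its direction rests on the normalization. Between 2 and 5 class II genes were called with single arrays left out. There were 2 without KO replicates 1 or 2 or WT replicates 1 or 3, and 5 without KO replicate 4. Of 11 tested class I genes, H2-T10, a nonclassical class I molecule, and Nlrc5, a transcriptional regulator of class I genes, rose (18.2%, beside 10.5%). None of the class I genes was called by limma without WT replicates 1, 3 or 5 or KO replicate 3, 1 without KO replicates 1 or 2 or WT replicates 2 or 4, and 3 without KO replicate 4. Nlrc5 was at 7.56, 6.56, 6.67, 6.32 and 5.85 in KO and at 5.23, 6.24, 5.34, 5.85 and 5.89 in WT, and the groups overlapped (0.88 ± 0.28 SE, adjusted p = 0.0474).

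Enzymes that handle foreign chemicals and oxidants were lower in KO in several families, each in part of its members. The best separated was the aryl hydrocarbon receptor (AHR) list, genes induced through the receptor for planar aromatic compounds. Of its 5 tested members 3 fell and 0 rose, with a median of -0.69, where 8.35% of all genes tested were called lower. Cyp1a1, the P450 most strongly induced through AHR, was at 6.29, 6.95, 6.27, 6.35 and 7.15 in KO and at 7.50, 8.18, 8.16, 7.27 and 7.91 in WT. The highest KO array lay 0.13 below the lowest WT array, and the difference was -1.20 ± 0.22 (SE; adjusted p = 0.0039, limma). Cyp1b1, a related P450, ran from 5.37 to 6.05 in KO and from 6.44 to 6.50 in WT (difference -0.69 ± 0.10). Nqo1, a quinone reductase induced through both AHR and NRF2, was at 4.21, 4.40, 4.37, 4.19 and 4.59 in KO and at 5.64, 5.22, 5.26, 4.97 and 5.12 in WT. All KO arrays were lower, by 0.89 ± 0.12 on average. Tiparp and Aldh3a1 were 0.17 and 0.40 lower and did not pass. The value of Tiparp is that of its brightest probe set. A further probe set of Tiparp gave -0.35 and passed on its own, and another gave -0.20 and did not. The same count of 3 was obtained with each array left out in turn. The list's mean level ran from 5.43 to 5.61 in KO and from 5.83 to 6.20 in WT.

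The promoters of the called P450 genes of this list are shown because both hold the core of the AHR binding element. The search string was GCGTG on either strand, chosen after the values were seen, and it occurs in 28.2% of the 32851 promoter windows of 250 bases in RefSeq (GRCm38.p6). Both windows end at the base before the gene's start and read 5' to 3' along the gene, with the match in capitals. That of Cyp1a1 lies on the plus strand (chr9:57697363-57697612), with the match 54 bases before the start. That of Cyp1b1 lies on the minus strand (chr17:79715062-79715311), with the match on the opposite strand 76 bases before the start, which reads CACGC. Of the 3 AHR list genes called, 2 held the string in any of their windows. Tiparp, not called by its brightest probe set though a further one passed, held the string too. The share of 28.2% is per window and not per gene, so it is no matched background for this count. A match in these windows is a description of the sequence and no evidence of binding.

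Cyp1a1 promoter: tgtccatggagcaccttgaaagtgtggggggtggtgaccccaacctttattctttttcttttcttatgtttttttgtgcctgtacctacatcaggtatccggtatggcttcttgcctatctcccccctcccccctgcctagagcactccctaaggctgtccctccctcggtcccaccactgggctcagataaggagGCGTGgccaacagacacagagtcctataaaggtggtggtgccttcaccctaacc

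Cyp1b1 promoter: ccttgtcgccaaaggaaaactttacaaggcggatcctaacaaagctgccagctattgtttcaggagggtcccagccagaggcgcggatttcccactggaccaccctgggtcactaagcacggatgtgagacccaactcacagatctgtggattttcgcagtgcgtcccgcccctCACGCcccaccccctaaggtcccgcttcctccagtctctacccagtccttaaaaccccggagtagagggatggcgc

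NRF2, the transcription factor of the antioxidant response, was represented by 18 tested genes that include glutathione synthesis. Of these 6 fell (33.3%, beside 8.35% of all genes) and 1 rose, with a median of -0.10. Gpx2, an epithelial glutathione peroxidase, was at 6.83, 7.01, 6.87, 7.54 and 6.93 in KO and at 8.91, 8.36, 8.54, 8.18 and 8.39 in WT. The KO arrays were all lower, with replicate 4 nearest to WT, and the difference was -1.44 ± 0.15 (SE; WT 2.71-fold higher; adjusted p = 0.000211, limma). Apart from Gpx2 and Nqo1 the falls were small: Gclm, the modifier subunit of glutathione synthesis, fell by 0.22 ± 0.05, Pgd, an enzyme of the pentose phosphate pathway, by 0.23 ± 0.06 and Prdx1, a peroxiredoxin, by 0.17 ± 0.05. Taldo1, another pentose phosphate enzyme, rose by 0.30 ± 0.06, although its difference was -0.050 as deposited. The count of falls was 3 without KO replicates 1 or 5 or WT replicates 1 or 3, and 4 without KO replicate 2 or, together, KO replicate 4 and WT replicates 4 and 5. Hmox1, heme oxygenase, and Gclc, the catalytic subunit of glutathione synthesis, differed by -0.10 and -0.03 and did not pass.

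The promoter of Gpx2 is shown as the NRF2 list member with the largest difference. The window is the 250 bases before the RefSeq start on the minus strand of GRCm38.p6 (chr12:76795555-76795804). The core of the antioxidant response element, TGANNNNGC on either strand, is matched once, on the opposite strand 202 bases before the start, and is in capitals. The string occurs in 35.2% of all such windows. By gene, with a match in any of its windows, it was found in 5 of the 7 called NRF2 list genes. These were Gclm, Gpx2, Prdx1, Txnrd1 and Taldo1, of which Taldo1 rose. Of the 8 uncalled genes that have a window, 3 held it (Osgin1, Srxn1 and Tkt). In the list of glutathione transferases below, it was found in 1 of 4 called and 6 of 11 uncalled genes with a window. The share of windows is not per gene, so it is no matched background for these counts.

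Gpx2 promoter: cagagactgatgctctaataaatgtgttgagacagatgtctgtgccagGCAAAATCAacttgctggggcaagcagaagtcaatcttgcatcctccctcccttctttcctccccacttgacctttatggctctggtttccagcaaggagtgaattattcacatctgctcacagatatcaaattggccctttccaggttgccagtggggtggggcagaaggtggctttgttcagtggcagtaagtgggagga

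Of 17 tested glutathione transferases, which couple glutathione to electrophiles such as epoxides, 5 fell (29.4%, beside 8.35% of all genes called lower) and 0 rose, with a median of -0.11. These were Gsta4, Gstm1, Gstm5, Gstm6 and the microsomal Mgst2. Gstm1 ran from 10.50 to 10.75 in KO and from 10.92 to 11.10 in WT (difference -0.40 ± 0.06 SE, adjusted p = 0.00149). Its best-matched probe sets share sequence with other mu-class genes, so the members of that class may not be told apart by them. Gstm6 fell by 0.47 ± 0.08, with all KO arrays below 4.38. Only 2 transferases were called without KO replicates 1, 2, 3 or 5 or WT replicates 1, 2 or 3, left out one at a time, which is near the share over all genes, and 7 without KO replicate 4 and WT replicates 4 and 5. The list's mean level ran from 8.07 to 8.28 in KO, where replicate 4 was highest, and from 8.20 to 8.39 in WT.

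Of 29 tested genes of other xenobiotic metabolism 9 fell (31%, beside 8.35% of all genes called lower) and 1 rose, with a median of -0.12. Beside Ces1f and Nqo1 these included Ces1e, a carboxylesterase that neighbours Ces1f (-0.88 ± 0.13, SE), Aox1, the aldehyde oxidase (-0.54 ± 0.06), Akr1b8, an aldo-keto reductase (-0.48 ± 0.12), and Ugt1a6a, a glucuronosyltransferase of phenols (-0.40 ± 0.08). Fmo1, a flavin monooxygenase, rose by 0.24 ± 0.06, but its difference was -0.051 as deposited. The epoxide hydrolases Ephx1 and Ephx2, which open the epoxides of styrene and other compounds, differed by -0.02 and -0.12 and did not pass. The list's mean level was lower in every KO array (7.63 to 7.85) than in any WT array (7.90 to 8.08). Without WT replicate 2 there were 6 falls. Of 16 tested other P450 enzymes 3 fell, which were Cyp1a1, Cyp1b1 and Cyp20a1, and 1 rose, Cyp27a1. These 4 were 25% of the list, beside 18.8% of all genes called. Cyp2e1, a further P450 that oxidises styrene, differed by -0.20, and Cyp4b1, an abundant lung P450, by 0.02; neither passed.

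**Figure D3:**
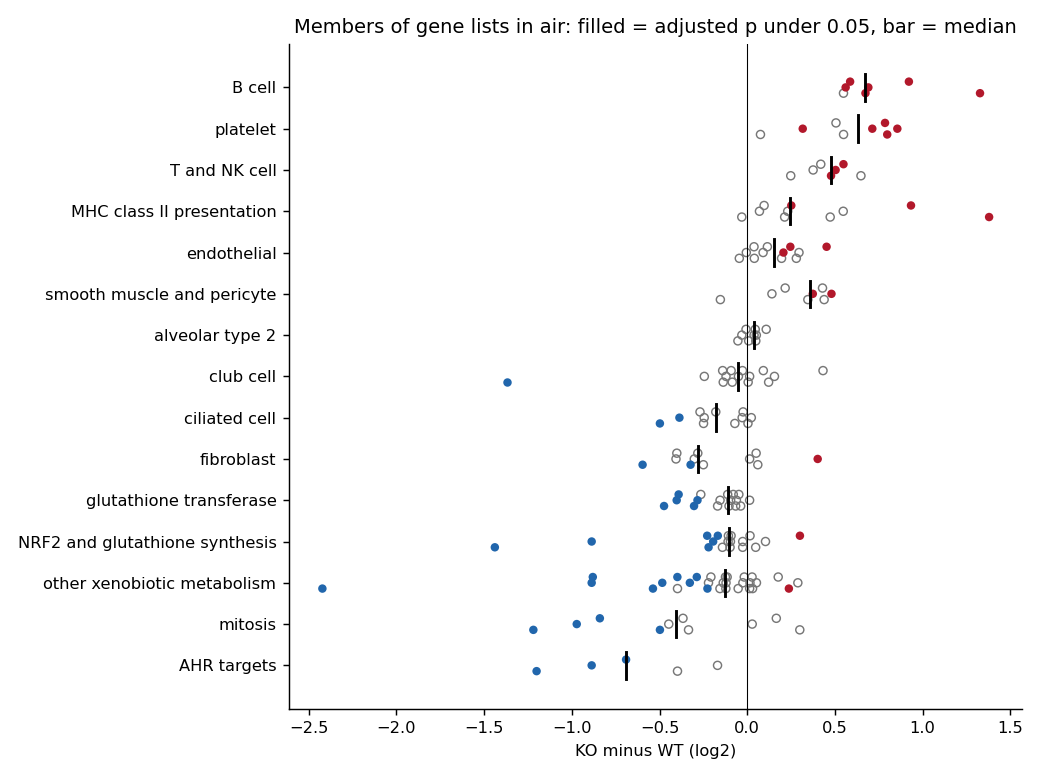
Difference between KO and WT in air (log2, horizontal axis) of each tested member of 15 gene lists (1 line per list), with filled points for an adjusted p under 0.05 and a bar at the list's median. B cell and platelet genes lie mainly to the right (medians 0.67 and 0.63) and AHR targets to the left (-0.69), while club cell genes other than Cyp2f2 lie around 0.

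Genes of cell division were lower in part. Of 10 tested mitosis genes 4 fell (40%, beside 8.35% of all genes) and 0 rose, with a median of -0.41. Mki67, the proliferation antigen Ki-67, was at 5.13, 4.37, 5.07, 5.12 and 4.77 in KO and at 6.31, 6.50, 6.24, 5.65 and 5.87 in WT, without overlap (difference -1.22 ± 0.18 SE; adjusted p = 0.00136, limma). Nusap1, a spindle protein, fell by 0.97 ± 0.15. The falls of Cdk1, the mitotic kinase (-0.84 ± 0.26), and Ccnb2, a mitotic cyclin (-0.50 ± 0.16), came with overlap between the groups. The count dropped to 2 without KO replicates 2, 4 or 5 or WT replicates 1, 2 or 3. WT replicate 2 had the highest mean level of the list, 5.13, while the other WT arrays ran from 4.43 to 4.74 and the KO arrays from 4.15 to 4.54. Of 15 tested genes of DNA replication, Mcm5 and Uhrf1 fell and Mcm3 rose, with a median of -0.06. That was 20% called, near the 18.8% of all genes. The rise of Mcm3 rests on its brightest probe set (0.33). A further probe set of Mcm3 gave -0.35 and passed in the opposite direction. Pttg1 was not in either list.

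Lists of the lung's structural cells had few calls. Of 9 alveolar type 1 and 9 alveolar type 2 markers, 0 passed by limma. At an unadjusted p under 0.05 it was 2 and 1, beside 3568 of all 10539 genes tested. The medians of both lists were small, 0.02 and 0.04. The count depended on the scaling, since 3 type 1 and 4 type 2 markers were called higher in KO after median subtraction, and 2 of each after cyclic loess. Of 12 endothelial markers 3 rose (25%, beside 10.5% of all genes called higher), which were Kdr, the VEGF receptor of endothelial cells, by 0.45 ± 0.10 (SE), Tek, the angiopoietin receptor, by 0.25 ± 0.07, and Car4, the carbonic anhydrase of lung capillaries, by 0.21 ± 0.06. On the deposited scale the differences of Tek and Car4 were -0.085 and -0.14. Between 1 and 5 endothelial genes were called with single arrays left out, 1 without KO replicate 5 or WT replicate 3 and 5 without KO replicate 4 or WT replicate 5. The 8 smooth muscle and pericyte genes had a median of 0.36, with 7 positive differences, and 6 had an unadjusted p under 0.05. Of the 8, 2 were called, both higher in KO (25%, beside 10.5% of all genes called higher). They were Acta2, smooth muscle actin, by 0.48 ± 0.12, and Notch3, a receptor of mural cells, by 0.37 ± 0.12, both with overlap. The count was 5 without WT replicate 5 and 1 without KO replicates 1, 2 or 3 or WT replicates 1, 2, 3 or 4.

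Of 11 tested fibroblast genes 2 fell (18.2%, beside 8.35% of all genes) and 1 rose (9.09%, beside 10.5%), with a median of -0.28. Among them Col1a1, the collagen I chain, fell by 0.60 ± 0.15 (SE) and Tcf21, a mesenchymal transcription factor, by 0.32 ± 0.10, while Pdgfra, a growth factor receptor of fibroblasts, rose by 0.40 ± 0.11, each with overlap. With single arrays left out, 1 to 3 fibroblast genes fell (3 without KO replicate 1, and 1 without KO replicate 5 or WT replicates 2, 3 or 5) and 0 or 1 rose. Of 11 tested ciliated cell genes 2 fell (18.2%, beside 8.35% of all genes called lower) and 0 rose. They were Tekt1, a tektin of the axoneme, lower by 0.39 ± 0.11, and Ccdc39, a dynein arm docking factor, by 0.50 ± 0.16. The ciliated count was 5 without KO replicate 4 and 0 or 1 without any other single array. It was 0 when all 20 air arrays were fitted together and 0 with the replicate number as a block. The ciliated list's mean level was 8.03 in KO replicate 4, above the 7.48 to 7.65 of the other KO arrays, and 7.69 to 8.06 in WT. The club cell mean level showed the same array on top, at 10.50 against 10.21 to 10.28. The part of airway content in the differences between arrays was not tested. Of 11 tested interferon response genes 1 fell (9.09%, near the 8.35% of all genes called lower) and 0 rose. This was Irf7, the interferon-induced regulator, lower by 0.70 ± 0.13. By limma 0 of 14 tested genes of the glucocorticoid list were called and 0 of 12 of sterol synthesis. At an unadjusted p under 0.05 it was 0 and 3, beside 3568 of all 10539 genes tested. Of 8 mesothelial genes 0 passed by limma and 1 had an unadjusted p under 0.05, although their median was -0.56 with 7 negative differences. Msln, mesothelin, ran from 5.16 to 7.58 in KO and from 6.71 to 7.46 in WT, and Upk3b, a uroplakin of mesothelium, from 6.79 to 9.10 and from 8.35 to 9.30. The KO arrays of both genes spread more widely than the WT arrays. Without KO replicate 3 or KO replicate 4, 1 mesothelial gene was called, lower in KO.

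Whether the neighbours of the targeted gene differed more often than other genes was described next. Distances are from the start of Cyp2f2 in RefSeq (GRCm38.p6). Within 1 Mb, 34 genes were measured and 19 tested beside Cyp2f2. Of the 19, 3 were called (15.8%, beside 18.8% of all genes): Mia and Coq8b lower and Shkbp1 higher in KO. Mia, a secreted protein first found in melanoma and cartilage, starts 0.06 Mb from Cyp2f2. It was at 5.49, 5.31, 4.92, 5.41 and 5.27 in KO and at 5.98, 6.36, 5.90, 6.03 and 5.67 in WT. The groups did not overlap, and the difference was -0.71 ± 0.13 (SE; adjusted p = 0.0040, limma). Coq8b, a kinase-like protein of coenzyme Q synthesis, and Shkbp1, a protein of EGF receptor turnover, differed by -0.20 ± 0.06 and 0.25 ± 0.07. Their calls were lost in 5 and 3 of the 10 fits that left out an array, and Shkbp1 was at -0.14 as deposited.

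The Cyp2 cluster around Cyp2f2 gave few measurable members, since of 8 measured genes 3 were bright enough to test. Cyp2a5, the coumarin hydroxylase, starts 0.28 Mb from Cyp2f2. It was at 6.23, 7.33, 8.59, 9.05 and 7.62 in KO and at 9.29, 9.82, 9.82, 8.23 and 8.60 in WT. The arrays of both groups spread widely and overlapped, and the difference of -1.39 ± 0.49 (SE) did not pass (adjusted p = 0.0668, limma). Leaving out each array in turn gave -1.71 to -1.0, and Cyp2a5 was called in 2 of the 10 fits, without KO replicate 4 (adjusted p = 0.0242) and without WT replicate 4 (adjusted p = 0.0488). The difference over all arrays was as large as that of Cyp2f2, with a much larger error. Its sequence is very close to that of Cyp2a4, so the probe set may read both. Cyp2b10, an inducible P450 of lung and liver, differed by 0.01 ± 0.08. The nearest genes, Egln2, a prolyl hydroxylase that marks hypoxia-inducible factor, and Rab4b, a GTPase of recycling endosomes, differed by -0.01 ± 0.05 and 0.20 ± 0.07 and did not pass. Snrpa, Itpkc, Numbl and Ltbp4 within 0.19 Mb did not pass either.

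Within 10 Mb, 34 of 163 tested genes other than Cyp2f2 were called (20.9%, beside 18.8% of all genes), 24 higher and 10 lower. At 1.5-fold 5 were called (3.07%, beside 1.87%). The count was 1 of 19 within 1 Mb (5.26%), 5 of 113 within 5 Mb (4.42%) and 9 of 269 within 20 Mb (3.35%). Of the 5, Cd79a, 2.22 Mb away, and Cd22, 3.75 Mb away, are B cell genes that moved with the rest of the B cell list. The others were Mia and the zinc finger genes Zfp420 and Zfp74, which lie 2.74 and 2.81 Mb away. Zfp420 was at 3.48, 3.49, 3.86, 3.95 and 3.89 in KO and at 4.40, 4.54, 4.62, 4.50 and 4.59 in WT. Zfp74 ran from 4.38 to 4.74 in KO and from 5.24 to 5.44 in WT. Both were lower in all KO arrays, by 0.79 ± 0.10 and 0.71 ± 0.07 (SE). All KO arrays of Zfp420 lay below 4.38, so it was tested through WT alone, where it was just above. Among genes that reached that level in both groups, 4 of 162 within 10 Mb were called at 1.5-fold (2.47%), beside 1.59% of all genes. Without KO replicate 4, 8 genes within 10 Mb were called at 1.5-fold.

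**Figure D4:**
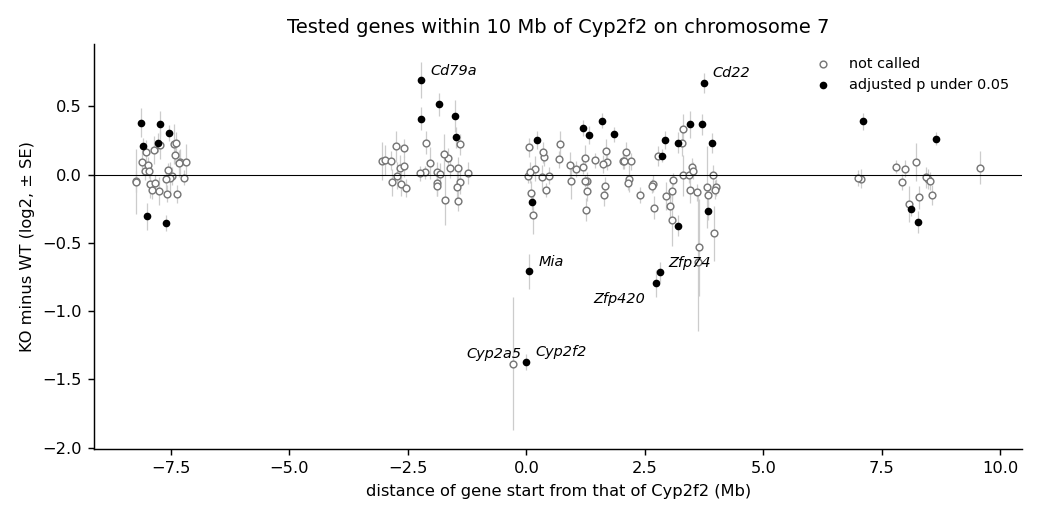
Difference between KO and WT in air (log2, vertical axis, with the SE as a grey line) of tested genes within 10 Mb of Cyp2f2 against the distance of their start from that of Cyp2f2 (Mb). Filled points have an adjusted p under 0.05 (34 of 163 genes beside Cyp2f2); Mia lies next to Cyp2f2, and Cyp2a5 is an open point with a long error line.

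Chromosome 7 as a whole held 21 genes called at 1.5-fold among 754 tested (2.79%), 9 higher and 12 lower. The share was highest on chromosome 3 (19 of 529, 3.59%) and, among chromosomes with a call, lowest on chromosome 18 (1 of 266, 0.376%). By adjusted p alone chromosome 7 had 20.2% called, beside 18.8% of all genes. The genome was also divided into windows of 10 Mb, of which 198 held at least 20 tested genes. In 92 of them no gene was called at 1.5-fold. The window of Cyp2f2 had 5 of 85 genes called (5.88%) with the targeted gene counted, and 13 windows had a higher share. Without Cyp2f2 it was 4 of 84 (4.76%), and 21 windows had a higher share. The highest shares were in windows with few calls: 2 of 25 genes on chromosome 11 (8%), 3 of 38 on chromosome 7 (7.89%; Fank1, Mgmt and Mki67) and 2 of 26 on chromosome 16 (7.69%; Btla and Retnla).

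The same count was made around the genes with the largest differences, which were chosen after their values were seen. Within 10 Mb of Npr1 on chromosome 3, 51 of 190 tested genes were called by adjusted p alone (26.8%, beside 18.8% of all genes). At 1.5-fold 10 were called (5.26%, beside 1.87% of all genes), 4 higher and 6 lower. They included Cd1d2 and 5830417I10Rik, 3.46 and 1.67 Mb from Npr1, and Pi4kb, 4.52 Mb from it on the other side, all described above. S100a6, a calcium-binding protein 0.162 Mb away, ran from 10.77 to 11.09 in KO and from 11.42 to 11.67 in WT (difference -0.63 ± 0.07 SE). Riiad1, 4.01 Mb away, fell by 0.95 ± 0.10, Fcrl1, a B cell receptor 3.07 Mb away, rose by 0.94 ± 0.11, and Gucy1a1, a subunit of soluble guanylate cyclase 8.36 Mb away, fell by 0.67 ± 0.09. Around Lrmda 1 of 82 genes was called at 1.5-fold (1.22%), around Pttg1 1 of 61 (1.64%) and around Ces1f 2 of 109 (1.83%), which were Ces1e and Nlrc5. By adjusted p alone it was 14.6% around Lrmda, 18% around Pttg1 and 25.7% around Ces1f, beside 18.8% of all genes. These shares were set side by side and not tested against each other.

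A set of 8 measured genes known to differ between substrains of C57BL/6 was examined, since the substrain of neither group is given. Of the 6 tested 1 fell (16.7%, beside 8.35% of all genes called lower) and 0 rose. This was Wdfy1, an adaptor of Toll-like receptor signalling, while Nnt, the mitochondrial transhydrogenase, differed by 0.12 and did not pass. Wdfy1 was at 6.26, 6.41, 8.55, 7.83 and 7.61 in KO and at 8.46, 8.57, 8.46, 8.44 and 8.51 in WT. The WT arrays agreed within 0.13, whereas the KO arrays spread over 2.30, from far below WT to the level of WT (difference -1.16 ± 0.36 SE, adjusted p = 0.0449, limma). All 4 probe sets of Wdfy1 were lower in KO and passed. The call was lost in 8 of the 10 fits that left out an array.

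The exposed arrays served as further samples of the same strains. At each dose KO was compared with WT as in air, and the air differences were looked up there. Of the 197 genes called at 1.5-fold in air, 186 were tested at 10 ppm, and 135 of these (72.6%) were called in the same direction, where 33.4% of all genes were called in either direction. At 40 ppm it was 151 of 185 (81.6%, beside 41.4%) and at 120 ppm 147 of 181 (81.2%, beside 40.9%). In all 3 doses 114 of the 197 were called in the direction seen in air, 54 higher and 60 lower. These comparisons use other mice than the air comparison, so the arrays are independent, but the exposed groups carry the response to styrene as well. The difference of Pttg1 was -3.72, -3.62 and -3.76 at 10, 40 and 120 ppm, that of Npr1 3.12, 3.06 and 2.98, and that of Lrmda 2.26, 2.55 and 2.24. Gpx2 differed by -2.09, -2.07 and -1.71.

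Some air differences depended on the dose. Cyp2f2 was flat in KO, with means of 11.80, 11.79, 11.76 and 11.76 at 0, 10, 40 and 120 ppm. In WT its mean was 13.14 ± 0.03 (SD, n = 5) in air, 12.74 ± 0.06 at 10 ppm, 12.17 ± 0.24 at 40 ppm and 12.56 ± 0.15 at 120 ppm. The KO minus WT difference was thus -0.95, -0.40 and -0.80 at the 3 doses, and its change from air to 120 ppm was 0.55 ± 0.11 (SE; adjusted p = 0.00138, limma, interaction). Over all genes 1484 of 10834 tested showed such a change (13.7%). Cyp1a1 was lower in KO in air and higher in KO at 40 and 120 ppm, by 1.68 at both. Its KO means stayed between 6.05 and 6.60, while the WT mean was 7.80 in air, 4.37 at 40 ppm and 4.64 at 120 ppm. Mia followed a like course: its WT mean was 5.99 in air and 5.02 at 120 ppm, and its KO mean 5.28 and 5.30. Its difference at 40 ppm was 0.49 (adjusted p = 0.0334), opposite to air, and at 120 ppm 0.28, which did not pass (adjusted p = 0.107). Uchl1 moved the other way, with WT means of 5.00 in air and 7.10 at 120 ppm and KO means of 3.69 and 3.97, so that its difference grew to -3.13.

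**Figure D5:**
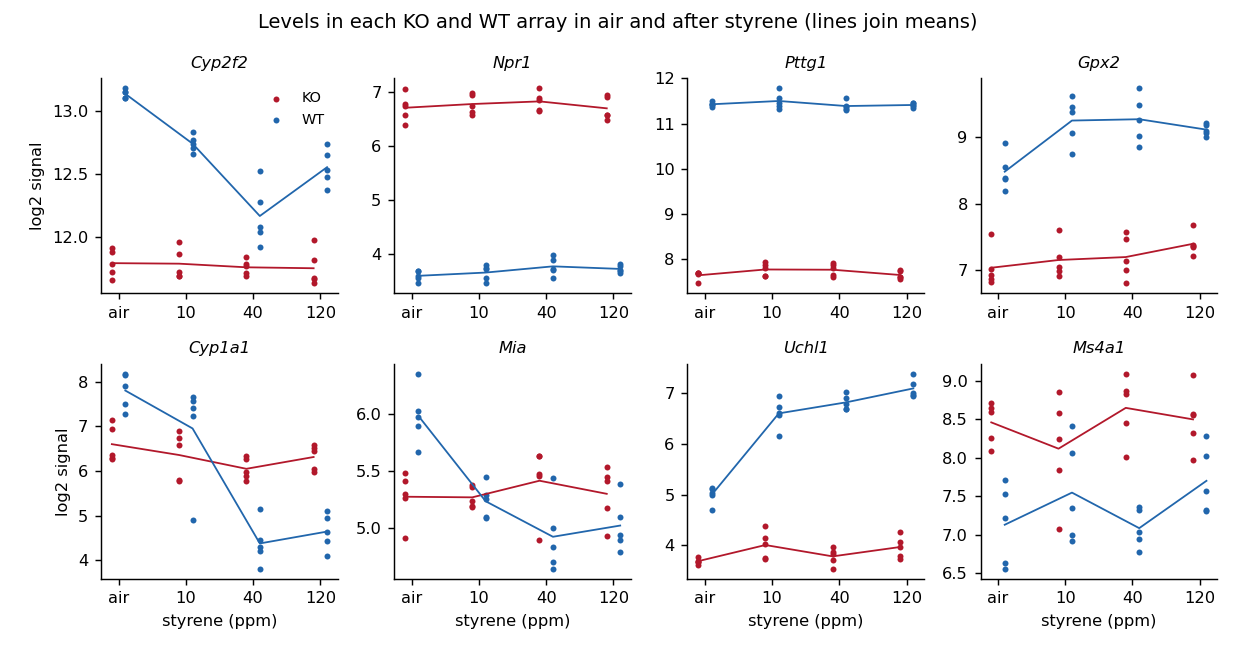
Level (log2 signal, vertical axis, not starting at 0) of 8 genes in each KO (red) and WT (blue) array in air and at 10, 40 and 120 ppm styrene (horizontal axis, not to scale), with lines through the means of 5 arrays. Npr1 and Pttg1 keep their gap at every dose, while Cyp1a1 is lower in KO in air (6.60 against 7.80) and higher at 120 ppm (6.31 against 4.64).

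Few genes called in air were called in the opposite direction after styrene. There were 2 at 10 ppm, Dhx58 and Nlrc5, and 5 each at 40 and 120 ppm. Those at 40 ppm were Cyp1a1, Dhx58, Dpyd, Mia and Nlrc5, and those at 120 ppm Azgp1, Cd59a, Cyp1a1, Dhx58 and Nlrc5. They are named because they go against air, after their values were seen. Dhx58, a regulator of RNA sensing that is induced by interferon, was 0.71 ± 0.09 (SE) higher in KO in air, at 5.83 to 6.26 against 5.21 to 5.46. It was lower in KO at 10, 40 and 120 ppm, by 1.83, 1.63 and 1.68. The B cell gene Ms4a1 stayed higher in KO, by 0.57, 1.57 and 0.80, which passed at 40 and 120 ppm and not at 10 ppm (adjusted p = 0.236). Spib differed by 0.51, 1.18 and 0.53 and passed at 40 ppm. Gstm1, Aox1 and Ugt1a6a, lower in KO in air, differed by 0.10, -0.09 and 0.04 at 120 ppm and did not pass there.

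The TG strain gave a further set of 5 air arrays. In the 20 air arrays normalized together Cyp2f2 averaged 11.74 in KO, 11.79 ± 0.17 (SD, n = 5) in TG, 13.13 in WT and 12.99 ± 0.07 in CD-1. TG minus KO was 0.05 ± 0.07 (SE, adjusted p = 0.648, limma). KO and TG also agreed within their spread for Lrmda (5.93 and 5.94) and Gpx2 (6.94 and 6.95), whose differences were 0.00 ± 0.10 and 0.02 ± 0.17. Lrmda was low in WT alone (3.67), as CD-1 stood at 5.73. Gpx2 was high in WT (8.40) and CD-1 (8.12). Ces1f was dim in both KO (3.20) and TG (3.24), and stood at 5.57 in WT and 5.45 in CD-1. Nqo1 was at 4.25 in KO, 4.08 in TG, 5.12 in WT and 5.11 in CD-1. Cyp2a5 averaged 7.68 in KO and 7.67 in TG against 9.08 in WT and 8.86 in CD-1, with SDs of 1.27 in TG and 1.23 in CD-1.

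For other genes TG differed from KO. Pttg1 averaged 7.56 in KO, 10.36 ± 1.49 in TG, 11.37 in WT and 8.48 in CD-1. Its TG arrays ran from 7.82 to 11.43, so that they reached from near the KO level to the WT level (TG minus KO 2.81 ± 0.44 SE, adjusted p = 0.000182, limma). Npr1 was at 6.60 in KO, 4.54 in TG, 3.51 in WT and 3.79 in CD-1, and TG minus KO was -2.06 ± 0.10 (adjusted p = 5.37e-11). TG thus lay between WT and KO for Npr1. Cd1d2, its neighbour on chromosome 3, was 1.45 ± 0.09 lower in TG than in KO, and 5830417I10Rik was 2.02 ± 0.28 higher. Mia was lower in TG (4.54) than in KO (5.16), by 0.62 ± 0.15, and stood at 5.87 in WT, so that TG lay further from WT than KO did and on the same side. Ms4a1 was 0.98 ± 0.28 lower in TG than in KO. Over all genes, TG and KO differed in 2921 of 10563 tested (27.7%), 374 of them at 1.5-fold (3.54%). The WT to KO and TG to KO comparisons share the KO arrays, so these values are given side by side only.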

How the data were processed

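RNA of whole lung was labelled with a 3' IVT kit and read on Affymetrix HT MG-430 PM arrays. The authors' deposited table holds log2 signal per probe set. The submitters' processing notes name RMA and Partek, without versions and without saying whether the strains were processed together. In the supplied platform annotation 28898 of 45037 probe sets had 1 symbol, 551 had several and 15588 had none, and 16937 of the 17097 genes were found in the RefSeq table (GRCm38.p6).

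The 10 arrays were quantile normalized over all probe sets, and each gene was represented by its brightest probe set on average. A gene was tested when it lay above the median of all probe sets (4.38) in at least 5 of the 10 arrays. Groups were compared with limma 3.58.1 in R 4.3.3 (lmFit and eBayes, two-sided, 8 residual degrees of freedom) with Benjamini-Hochberg adjustment over all genes tested, at 0.05. The script was tested on simulated data. A list was described by its count and median. The 5 arrays per group limit the precision.

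The members, the 41 gene lists and the rules were chosen with earlier results of these data known, and the platelet list and the promoter motifs after the values were seen. The genes named are Cyp2f2, the 15 largest rises and falls at 1.5-fold without overlap, genes near Cyp2f2, up to 4 members of each list with the lowest p and genes of the densest windows. Other genes were named after their values were seen.

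Alternatives were median subtraction, cyclic loess, no scaling, no level filter, the mean of a gene's probe sets, all 20 air arrays, a trended robust prior, other windows, each array left out, and the replicate number as a block. Same-numbered KO and WT arrays did not deviate together (correlations from -0.35 to -0.02), so the numbers were not taken as pairs. Sequences are from RefSeq.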

Additional observations from a re-analysis of the deposited data

Results flagged for a closer look

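In 13 of 154 groups of 5 arrays that were examined, 1 array stood far from the other 4; chance alone gives about 1 in 20. Among the genes named, Ccr6 was at 4.64 in WT replicate 4 (others 3.97 to 4.06), Mirt1 at 5.48 in KO replicate 2 (others 4.94 to 5.06), Pttg1 at 7.47 in KO replicate 5 (others 7.68 to 7.70), Gpx2 at 7.54 in KO replicate 4 (others 6.83 to 7.01) and Cd79a at 6.26 in KO replicate 2 (others 5.61 to 5.77). Among the mean levels of gene lists, KO replicate 4 was high for club cell genes (10.5), glutathione transferases (8.28) and skeletal muscle (5.21). WT replicate 1 was high for skeletal muscle (5.65) and squamous epithelium (8.92), and WT replicate 2 for thymocyte genes (4.34). WT replicate 4 was low for cardiac muscle (6.01) and high for Y-linked genes (7.23).

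The genes examined were the 15 largest rises and 15 largest falls at 1.5-fold without overlap (Cyp2f2 among the falls). The 5 genes called at 1.5-fold near Cyp2f2 were examined as well. For 6 of all these genes the KO minus WT difference at 120 ppm was not that in air, by an interaction term in limma over 20 arrays. Over all genes 1484 of 10834 tested (13.7%) showed such a change, so it was not particular to the genes examined. The change was 0.55 ± 0.11 (SE) for Cyp2f2, 1.15 ± 0.31 for Atp6v1b1, the proton pump subunit, 1.37 ± 0.31 for Ces1f, 2.88 ± 0.31 for Cyp1a1, 0.99 ± 0.20 for Mia and -1.82 ± 0.14 for Uchl1.

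Probe sets without a gene symbol were outside the comparison. Of 6170 that were bright enough, 212 (3.44%) were called at 1.5-fold, 131 higher and 81 lower in KO.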

How the results depend on the processing

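Without any scaling 8963 genes were called, 69 higher and 8894 lower in KO, and 1440 at 1.5-fold (15 higher, 1425 lower); near Cyp2f2 it was 21 genes at 1.5-fold and 131 by adjusted p alone. The whole-array difference of -0.36 is part of these values. On that scale Shkbp1 (-0.14), Rab4b (-0.19), Cyp2b10 (-0.32), H2-Aa (-0.035), Itgb3 (-0.072), Taldo1 (-0.050), Fmo1 (-0.051), Car4 (-0.14), Tek (-0.085) and Notch3 (-0.011) were on the other side of 0. With no filter on low signal 3213 genes were called (1709 higher, 1504 lower), 58 of them within 10 Mb of Cyp2f2, since more genes were tested. The window around Cyp2f2 held 1 call at 1.5-fold within 1 Mb and 9 within 20 Mb, by its width alone. Chromosome 7 had 20.2% called by adjusted p alone in place of 2.79% at 1.5-fold.

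The replicate number as a block gave 1120 calls (609 higher, 511 lower), with 20 near Cyp2f2, although the numbers did not pair the arrays. Of the 197 genes called at 1.5-fold, 178 were called with the block.

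Leaving out each array in turn gave 1319 to 2143 calls (757 to 1157 higher, 554 to 986 lower), 176 to 253 at 1.5-fold (86 to 118 higher, 85 to 143 lower), 5 to 8 near Cyp2f2 at 1.5-fold and 23 to 34 by adjusted p alone. A setting chosen after seeing the data, without KO replicate 4 and WT replicates 4 and 5, gave 393 calls at 1.5-fold (155 higher, 238 lower) and 9 near Cyp2f2; the cause was not tested. Of the 197 genes, 172 were called at 1.5-fold after median subtraction, 190 after cyclic loess and 171 when all 20 air arrays were fitted. Cyp2f2, Npr1, Lrmda, Cd1d2, Pttg1 and Ces1f kept their direction and call under every setting run. Signals near the median of all probe sets limit the folds of genes such as Npr1, Lrmda, Ces1f and Uchl1.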

Other observations

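Heat shock genes divided the WT arrays in air. The mean level of 11 heat shock and cold-inducible genes was 9.43, 9.44 and 9.43 in WT replicates 1 to 3, 8.88 and 8.94 in WT replicates 4 and 5, and 8.90 to 9.10 in KO. Hspa1b, an inducible HSP70, ran from 7.10 to 9.39 in WT and from 7.19 to 7.92 in KO, and Hsph1, an HSP110 chaperone, from 8.60 to 10.17 and from 8.78 to 9.37; neither differed between the groups by limma (adjusted p = 0.155 and 0.14). Cirbp, the cold-inducible RNA-binding protein, was 0.64 ± 0.17 (SE) higher in KO (adjusted p = 0.026), with overlap. Bag3 was the 1 member called lower (-0.37). These were 9.09% each, beside 10.5% of all genes called higher and 8.35% lower. Of the 11 differences 10 were negative. Without WT replicate 4, 5 members were called lower. With both lower WT arrays (replicates 4 and 5) and KO replicate 4 left out, 8 were. Leaving out the WT arrays that were low for this list raises its WT mean. More calls lower in KO were therefore built into both settings.

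Y-linked genes, present since all mice were male, were called lower in KO for 2 of 3 tested genes, where 8.35% of all genes were. The count was 1 in 8 of the 10 fits that left out an array, and 1 when all 20 air arrays were fitted together. With the mean of a gene's probe sets 1 was higher and 1 lower. Uty, a histone demethylase relative, fell by 0.56 ± 0.10 (SE) without overlap (adjusted p = 0.00338, limma), and Eif2s3y, a translation initiation factor subunit, by 0.45 ± 0.14 with overlap (adjusted p = 0.0414). Kdm5d, a histone demethylase, differed by 0.09 and did not pass.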
